A study of Mus musculus with 6 samples.

Results

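The comparison described here sets mouse spermatogonial stem cell cultures that were kept without glial cell line-derived neurotrophic factor (GDNF) against cultures that received it. It holds 4 of the 6 libraries of the series, 2 in each group, taken by the names of the count columns, and covers the 16121 of 31384 listed genes that passed a filter on low counts. The group with GDNF is called PTC and had 10 ng/mL of the recombinant rat protein, and the group without it is called NTC. Both groups shared 10 ng/mL EGF, 10 ng/mL FGF2, 5000 U LIF, 1% serum and a layer of embryonic fibroblasts whose division had been stopped with mitomycin C, and both were collected on day 18. The source is labelled as 1 mouse spermatogonial stem cell line, with no genotype, age or donor given here. The other 2 libraries, in which lovastatin replaced GDNF, were not compared, but they entered the fit and so had a part in the filter on low counts, the scaling and the estimate of the spread between libraries.

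Spermatogonial stem cells are the germ cells of the testis that renew themselves and feed sperm production. In the testis, Sertoli and other somatic cells supply GDNF, which binds the co-receptor GFRA1 on the stem cell and activates the receptor tyrosine kinase RET. RET signals through SRC-family kinases, the PI3K-AKT route and the RAS-ERK route, and these raise a set of transcription factors, among them Etv5, Bcl6b and Lhx1, that are known for supporting self-renewal in culture. Feeder fibroblasts in such cultures lie under the germ cell colonies and are collected with them to some extent, so a bulk RNA library holds RNA of both.

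PTC A and PTC B held 14991211 and 22668087 counts in all, and NTC A and NTC B held 12454671 and 16573315. Levels are given as CPM, counts scaled to the same total in each library, and 3 counts correspond to between 0.128 and 0.239 CPM. The letters are those of the deposited columns. The labels do not tell if libraries of 1 group came from separate cultures, and p-values here measure only the spread between these libraries, which may be technical. On the first principal component of log2 CPM, which held 88.8% of the variance of the 4 libraries, the order was PTC A, PTC B, NTC A and NTC B. Median log2 fold changes over 10 equal bins of protein-coding genes ordered by GC content ran from 0.25 in the lowest bin to -0.19 in the highest, and those over 10 bins of transcript length stayed between -0.09 and 0.11.

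Marker genes of several cell types moved with the groups. The 19 pan-germ-cell genes, which act in germ cells of many stages, took 0.579% and 0.581% of counts in PTC and 0.329% and 0.216% in NTC. The 21 feeder fibroblast markers took 0.0854% and 0.403% in PTC and 1.26% and 1.97% in NTC. The 20 macrophage markers took 0.0352% and 0.0300% in PTC and 0.220% and 0.281% in NTC. In a bulk library, fewer cells of a type and less RNA per cell cannot be told apart, and the part of cell composition in the results that follow was not tested. Markers of other immune cells were nearly absent: of 14, 12 did not pass the count filter, and Nkg7, Klrb1c, Mcpt4 and Ly6g had 0 counts in all 4 libraries. The 13 Sertoli cell markers took 0.00223% and 0.00456% of counts in PTC and 0.0133% and 0.0149% in NTC. Of the 8 tested, 2 rose and 0 fell, where 21.5% of all genes rose. Fshr, the receptor of follicle-stimulating hormone, had 0 counts in the 4 libraries. Of the other markers not tested, Rhox5 and Defb36 had more counts in PTC, Amh more in NTC and Dhh similar counts, all at 9 or fewer. Of 8 endothelial markers tested 2 rose and 1 fell, and of 3 Leydig cell markers 0 were called. Among spermatid genes Prm1 and Prm2, which encode the protamines that pack sperm DNA, had 0 counts.

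A gene is said to have risen or fallen when its adjusted p was under 0.05 in edgeR's quasi-likelihood test with Benjamini-Hochberg adjustment over the 16121 genes. By that rule 3472 genes were higher in NTC (21.5%) and 2086 were lower (12.9%), so 34.5% of all genes were called, and counts for gene groups below are to be read against these shares. Libraries lay apart, with both NTC values above both PTC values in 39.0% of genes and below them in 38.5%. Without NTC B 1 gene was called higher and 0 lower, while 3039 and 1496 genes had an unadjusted p under 0.05. Without PTC A the counts were 1210 and 201, without PTC B 2294 and 473, and without NTC A 2251 and 535. The fold changes moved less than these counts. For the 171 called genes named in the text, the log2 fold change without NTC B kept its sign in all 171 and had a median of 91.0% of its size with all libraries (67.2% to 128.9%), and the median adjusted p was 0.094. Of the 47 gene lists with a median log2 fold change of at least 0.5 in size, 0 changed sign when any 1 of the 6 libraries was left out.

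Fold changes are given with libraries scaled by TMM, a scaling that centres the bulk of genes, and the median over all genes was -0.02. When the libraries were instead scaled to the pan-germ-cell genes (called the germ-cell scale below) that median became 1.00, with 4783 genes called higher (29.7%) and 40 lower (0.248%). Scaled to the feeder markers (the feeder scale), it became -3.55, with 38 genes called higher (0.236%) and 12043 lower (74.7%). A change of scale shifts most gene groups nearly alike, so group medians below are to be read against the median of all genes. Measured from that median, the largest shift of a list on either scale had a median of 0.10 over the 64 lists and reached 0.85. Single genes with 0 counts in 1 group shifted less than most, such as Try5, at 9.39 under TMM and 8.80 on the feeder scale. Of the named genes, each that rose was still called on the germ-cell scale, but 56 of the 70 that fell were not, and 9 of those 56 had positive values there. The 56 include Ddx4, Tdrd9 and Mov10l1, which are among the genes that set this scale. The 14 that kept their call were Acan, Barhl2, Chrna4, Fbl, Foxo6, Gjb2, Hoxb8, Lhx1, Mpzl2, Mycl, Pik3cd, Sox2, Trf and Zic1, and a fall reported below for any other gene was not called on the germ-cell scale.

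The receptor gene of GDNF fell without its ligand, while its co-receptor gene did not pass the test. Ret stood at 291 and 199 CPM in PTC A and B and at 68.3 and 54.1 CPM in NTC A and B. Both NTC libraries were below both PTC libraries, and the log2 fold change was -2.0 (SE 0.31, adjusted p = 0.010), or -1.01 on the germ-cell scale (adjusted p = 0.0573). Gfra1 was at 97.1 and 66.1 CPM with GDNF and 46.4 and 55.1 CPM without, a difference of -0.69 (SE 0.23, adjusted p = 0.0565) that turned to 0.36 on the germ-cell scale. Gfra2, the co-receptor that prefers neurturin, rose from 0.564 and 1.66 CPM to 3.82 and 4.84 CPM (1.92, SE 0.56, adjusted p = 0.0391). Ncam1, an adhesion molecule that can also bind GDNF, rose from 4.39 and 10.1 to 24.2 and 43.5 CPM (2.21, SE 0.56). The endogenous Gdnf transcript was at 0.188, 1.19, 1.51 and 1.93 CPM in PTC A, PTC B, NTC A and NTC B and did not pass the test (adjusted p = 0.320).

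Of 25 tested genes on the list of those that carry the RET signal inside the cell, 7 rose and 4 fell. This is not far from the shares of all genes (21.5% and 12.9%), and the median log2 fold change of the list was 0.18. Pik3r1, the regulatory subunit of PI3K, rose from 8.90 and 17.5 CPM to 59.4 and 96.5 CPM (2.55, SE 0.48). Fyn, a SRC-family kinase that acts downstream of RET, fell from 115 and 84.2 to 45.6 and 45.5 CPM (-1.13, SE 0.20), and Mtor, the growth kinase, fell by 1.05 on the log2 scale (SE 0.20). On the germ-cell scale Fyn and Mtor were at -0.10 and -0.03 and were not called. Pik3cd, a catalytic subunit of PI3K outside that list, went from 155 and 173 CPM to 40.6 and 38.9 CPM (-2.05, SE 0.26), and it kept its call on the germ-cell scale (-1.02, adjusted p = 0.0466).

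Genes known to respond to GDNF in these cells mostly fell. Of 13 tested, 7 fell and 1 rose, with a median of -1.14, or -0.14 on the germ-cell scale. Lhx1, a homeobox transcription factor, was at 14.5 and 9.08 CPM with GDNF and 0.478 and 0.322 CPM without. The log2 difference was -4.87 (SE 0.52, adjusted p = 0.00795), and it was still called on the germ-cell scale (-3.88, adjusted p = 0.0270). Nanos2, an RNA-binding protein that keeps spermatogonia undifferentiated, went from 18.5 CPM in both PTC libraries to 5.42 and 3.68 CPM (-2.03, SE 0.39, adjusted p = 0.0141). Pou3f1, a POU-domain transcription factor, went from 78.8 and 69.6 to 25.6 and 19.3 CPM (-1.72, SE 0.34). Mycn, Egr4, Egr2 and Bcl6b also fell, by 1.37, 1.33, 1.31 and 1.14 on the log2 scale. Etv5, an ETS factor, was at 53.4 and 28.5 CPM in PTC and 28.8 and 32.6 CPM in NTC: the groups overlapped, and the difference was -0.41 (adjusted p = 0.322). Id4, a marker of the most stem-like spermatogonia, had -0.78 (adjusted p = 0.0924). Cxcr4, the receptor of the chemokine Cxcl12, was the member that rose, from 5.02 and 2.73 to 10.3 and 13.2 CPM (1.61, SE 0.48, adjusted p = 0.0398).

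**Figure D1:**
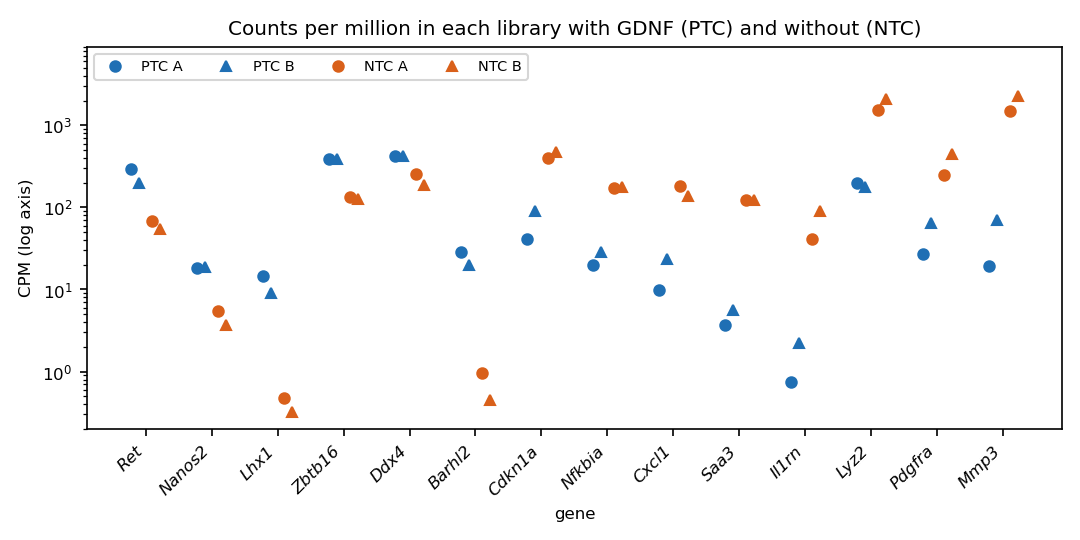
CPM on a log axis for 14 genes in the 4 libraries, with PTC A and B in blue and NTC A and B in orange, circles for A and triangles for B. Both NTC libraries lie below both PTC libraries for Ret, Nanos2, Lhx1, Zbtb16, Ddx4 and Barhl2 and above them for the other 8 genes.

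Regulators of undifferentiated spermatogonia fell or did not pass the test. Of 22 tested, 12 fell and 20 had a negative value, with a median of -1.05, or -0.05 on the germ-cell scale. Zbtb16, the zinc-finger repressor also called PLZF, was at 389 and 387 CPM with GDNF and 134 and 125 CPM without (-1.58, SE 0.26, adjusted p = 0.0109). Eomes, a T-box factor of a stem-like subset, went from 4.83 and 5.67 to 0.956 and 1.68 CPM (-1.98, SE 0.44). Ddit4, an inhibitor of mTOR complex 1, went from 364 and 279 to 91.8 and 88.3 CPM (-1.83, SE 0.19). Foxo1 and Sall4, transcription factors needed to keep the stem cell pool, fell by 1.22 (SE 0.26) and 1.06 (SE 0.26). On the germ-cell scale none of these 5 genes was called, with values from -0.90 for Eomes to -0.05 for Sall4.

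Among surface proteins used to isolate these cells, some rose and some fell. Itga6, the integrin alpha 6 chain, fell from 114 and 95.3 to 45.2 and 31.7 CPM (-1.44, SE 0.24, adjusted p = 0.0114). Itgb1, its partner integrin beta 1 chain, rose from 243 and 365 to 852 and 1338 CPM (1.85, SE 0.37), and Thy1, which feeder fibroblasts also express and which is in the fibroblast list too, rose from 19.8 and 51.0 to 207 and 290 CPM (2.81, SE 0.49). Cdh1 and Epcam, epithelial adhesion molecules, had values of -1.37 (adjusted p = 0.0515) and -0.99 (adjusted p = 0.119). Over the 12 markers, 3 rose and 2 fell, not far from the shares of all genes (21.5% and 12.9%).

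Genes of the next stages of spermatogenesis were not called higher under TMM. Of 11 differentiating spermatogonia genes 2 fell, with a median of 0.15, and of 22 meiotic prophase genes 1 fell, with a median of -0.38. In edgeR's test 0 genes of either list rose, with 1 gene of each higher at an unadjusted p under 0.05, and DESeq2 called 0 of either higher. Their medians on the germ-cell scale were 1.08 and 0.61, against 1.00 for all genes and -0.05 for the regulators of undifferentiated spermatogonia. On that scale 1 differentiating and 2 meiotic genes were called higher. Kit, the receptor that marks differentiating spermatogonia, was at 30.2 and 59.6 CPM in PTC and 56.5 and 44.6 CPM in NTC, with overlapping groups (0.17, adjusted p = 0.733). Stra8, which retinoic acid induces before meiosis, was at 19.9 and 61.8 CPM in PTC and 80.1 and 44.8 CPM in NTC, again overlapping (0.61, SE 0.57, adjusted p = 0.432). Dnmt3b, a DNA methyltransferase of differentiating cells, fell by 1.10 (SE 0.34, adjusted p = 0.0456), and Tex11, an X-linked meiotic gene, fell by 0.90 (SE 0.28, adjusted p = 0.0468), though on the germ-cell scale Tex11 was at 0.08. Sohlh1, a transcription factor of early differentiation, ranged from 49.0 CPM in NTC B to 169 CPM in PTC B and did not pass the test (adjusted p = 0.250).

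The genes that define the germ lineage as a whole were lower without GDNF. All 19 pan-germ-cell genes had both NTC libraries below both PTC libraries, 9 of them passed the test, and the median was -1.01. Ddx4, the germ cell RNA helicase, was at 420 and 421 CPM in PTC and 255 and 190 CPM in NTC (-0.92, SE 0.23, adjusted p = 0.0242). Tdrd9 and Mov10l1, helicases of the piRNA pathway that silences transposons, fell by 1.85 (SE 0.46) and 1.29 (SE 0.32). Because these genes set the germ-cell scale, their own values on it carry no information. Pluripotency factors that spermatogonia share fell in part: Pou5f1 went from 146 and 130 to 55.0 and 28.2 CPM (-1.73, SE 0.46), and Tfap2c from 35.6 and 28.1 to 7.81 and 10.3 CPM (-1.81, SE 0.30). Klf4, which fibroblasts express as well, rose from 50.0 and 79.9 to 148 and 189 CPM (1.37, SE 0.32), and Nanog stayed between 0.314 and 1.20 CPM in the 4 libraries.

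A small group of genes fell further than the germ cell genes did. Of the 40 genes called lower on the germ-cell scale (0.248% of those tested), 25 had a mean of at least 5 CPM, a gene symbol that is no predicted gene or clone, and libraries that did not overlap. Several of the 40 genes encode transcription factors known from the nervous system. Barhl2, a homeobox gene of neurons, went from 28.3 and 19.9 CPM to 0.956 and 0.451 CPM (-5.11, SE 0.45, and -4.14 on the germ-cell scale, adjusted p = 0.0270). Zic1, a zinc-finger gene of the neural tube, went from 72.1 and 43.3 to 6.69 and 8.90 CPM (-2.88, SE 0.33), and Foxo6 from 31.8 and 24.0 to 4.94 and 2.9 CPM (-2.84, SE 0.44). Sox2, the neural and pluripotency factor, had 6.58 and 4.26 CPM with GDNF and 0.0797 and 0.258 CPM without, where the NTC values lie near the level of 3 counts (-4.88, SE 0.70). These factors did not move as a class: of 14 tested genes on the list of neural transcription factors, 3 fell, 1 rose and 10 did not pass the test.

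Other genes of that group encode proteins of different kinds, and those named here are only a part of it. Gjb2, the gap junction protein connexin 26, went from 12 and 12.1 CPM to 0.558 and 0.193 CPM (-5.02, SE 0.53). Mpzl2, an epithelial adhesion molecule, went from 59.8 and 49.0 to 4.22 and 5.87 CPM (-3.42, SE 0.34). Chrna4, a nicotinic acetylcholine receptor subunit, went from 55.9 and 45.4 to 10.8 and 6.06 CPM (-2.59, SE 0.42), and Acan, the cartilage proteoglycan aggrecan, fell by 2.55 (SE 0.45). Trf, which encodes transferrin, the iron carrier, went from 53.4 and 50.1 to 10.1 and 11.1 CPM (-2.28, SE 0.37). Fbl, the nucleolar methyltransferase fibrillarin, went from 466 and 452 to 119 and 99 CPM (-2.07, SE 0.28), and Mycl, a member of the MYC family, from 82.6 and 67.8 to 22.6 and 15.4 CPM (-1.98, SE 0.35). Sp5, a target of WNT signalling, had a TMM-scaled value of -2.58 (SE 0.39, adjusted p = 0.00998) and narrowly missed the call on the germ-cell scale (adjusted p = 0.0560).

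The 4 Hox clusters, whose genes set position along the body axis, moved in opposite directions. In all 10 tested HoxB genes both NTC values lay below both PTC values, and 7 of them passed the test. All 10 tested HoxA genes had positive values, and so did the 7 HoxC and 6 HoxD genes, with 9, 6 and 5 of them called. The cluster medians were -1.31 for HoxB and 3.20, 3.38 and 3.34 for HoxA, HoxC and HoxD. On the germ-cell scale they were -0.28, 4.24, 4.45 and 4.35, with 6 of the 10 HoxB values negative, and on the feeder scale -4.88, -0.09, 0.74 and 0.63. Summed over a cluster, HoxB genes made up 247 and 261 CPM in PTC and 91.6 and 92.4 CPM in NTC, while HoxA genes made up 6.15 and 8.10 CPM in PTC and 46.1 and 66.1 CPM in NTC. HoxC sums were 3.89 and 9.25 CPM against 48.8 and 63.6 CPM, and HoxD sums 1.32 and 6.27 CPM against 26.9 and 39.0 CPM.

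Within the HoxB cluster, whose tested genes span chromosome 11 from 96194316 to 96368256 in mm10, the fall was largest for Hoxb8. That gene went from 65.8 and 70.1 CPM to 13.3 and 12.9 CPM (-2.37, SE 0.24, adjusted p = 0.00795) and was the HoxB gene still called on the germ-cell scale (-1.35, adjusted p = 0.0317). Hoxb4 went from 28.7 and 38.1 to 8.68 and 7.61 CPM (-2.04, SE 0.26), and Hoxb1 from 1.82 and 2.47 to 0.558 and 0.516 CPM (-1.99, SE 0.57). Hoxb5, Hoxb6, Hoxb7 and Hoxb9 fell by 1.65, 1.41, 1.21 and 1.0, and Hoxb9 was at 0.04 on the germ-cell scale. Among the genes that rose, Hoxa9 went from 0.564 and 0.554 to 6.77 and 5.61 CPM (3.45, SE 0.50), Hoxc8 from 0.251 and 1.58 to 10.8 and 14.8 CPM (3.73, SE 0.68), and Hoxd8 from 1.07 and 5.46 to 20.1 and 31.5 CPM (2.94, SE 0.72). Hoxd11 had 0 counts in PTC and 16 counts in each NTC library, which against a floor of 3 counts over the PTC group is at least 13.8-fold higher. Hoxa2 and Hoxc5, with PTC values of 0.0627 and 0.384 CPM each, rose by 4.04 (SE 0.92) and 3.94 (SE 0.87).

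**Figure D2:**
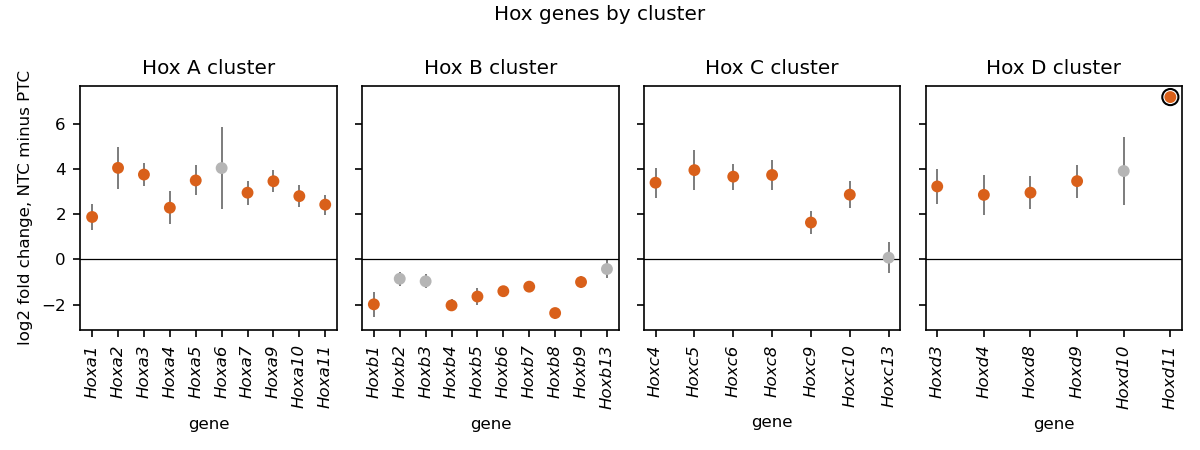
Log2 fold changes of the 33 tested Hox genes by cluster, NTC minus PTC, with standard errors as bars, called genes in orange and others in grey. The 10 HoxB genes lie below 0 and the other 23 above it, and the ringed Hoxd11 has no standard error because it had 0 counts in PTC.

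Genes of mitosis and DNA replication had lower values without GDNF. All 24 mitotic genes had negative values and 17 fell, with a median of -1.22 (-0.25 on the germ-cell scale). All 26 replication genes were negative too, of which 7 fell, with a median of -0.79 (0.20 on the germ-cell scale). Kif11, a motor of the mitotic spindle, went from 132 and 102 to 50.0 and 30.8 CPM (-1.54, SE 0.29), and Cdc20, an activator of the anaphase-promoting complex, from 248 and 259 to 110 and 65.6 CPM (-1.53, SE 0.34). Mcm7, a subunit of the replicative helicase, fell by 1.20 (SE 0.32), and Pole, the leading-strand polymerase, by 1.21 (SE 0.27). Mki67, the common proliferation marker, did not follow: it was at 130 and 68.3 CPM in PTC and 98.7 and 62.7 CPM in NTC, and the groups overlapped (-0.29, adjusted p = 0.526). Without PTC A its value was 0.24.

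Of 14 G1 cyclins and inhibitors of cyclin-dependent kinases, 7 rose and 1 fell. Cdkn1a, the CDK inhibitor p21, went from 40.9 and 91.5 to 402 and 472 CPM (2.72, SE 0.40, adjusted p = 0.00963). Cdkn2b, the inhibitor p15, went from 11.4 and 17.4 to 65.6 and 70.5 CPM (2.23, SE 0.28), and Rbl2, the pocket protein p130 of resting cells, from 4.20 and 6.61 to 27.2 and 48.1 CPM (2.79, SE 0.49). The mitomycin-treated feeders are themselves arrested, and their marker share rose with these genes; its part in the change was not tested. DNA repair genes of the homologous recombination and Fanconi pathways resembled the replication list: 8 of 22 fell, among them Fanci (-1.35, SE 0.24), and their median was -0.79, or 0.21 on the germ-cell scale.

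Chromatin repressors were lower as a list. Of 17, 9 fell, with a median of -0.86 (0.12 on the germ-cell scale). Ehmt2, the histone H3 lysine 9 methyltransferase G9a, went from 677 and 721 to 391 and 309 CPM (-1.0, SE 0.26), and was at 0.0041 on the germ-cell scale. DNA methylation and demethylation enzymes formed a separate list. Of 13 tested, 3 fell, 1 rose and 9 were not called, with a median of -0.10. Dnmt1, the maintenance DNA methyltransferase, went from 553 and 493 to 287 and 228 CPM (-1.02, SE 0.27). Tet2, which oxidises methylated cytosine, rose from 1.94 and 2.60 to 11.5 and 20.1 CPM (2.79, SE 0.60).

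ERK feedback genes, which the RAS-ERK route induces, did not fall together. Of 17 tested, 5 rose and 1 fell. Dusp5, a nuclear ERK phosphatase, went from 102 and 91.6 to 34.9 and 30.0 CPM (-1.58, SE 0.18, adjusted p = 0.00859), while Dusp6, a cytoplasmic one, stayed between 47.8 and 63.3 CPM in the 4 libraries (-0.36, adjusted p = 0.191). Spry4 was at -0.75 (adjusted p = 0.0630) and Etv4 at -0.67 (adjusted p = 0.296). Spry1 rose from 10.1 and 13.9 to 37.5 and 50.6 CPM (1.88, SE 0.36), and Etv1 from 0.627 and 2.26 to 12.9 and 16.6 CPM (3.30, SE 0.58). Of 18 immediate early and heat shock genes, 9 rose and 3 fell, with a median of 0.63. Egr1 was the lowest of them and fell from 570 and 629 to 300 and 237 CPM (-1.16, SE 0.24). Fos was not called (0.48, adjusted p = 0.139).

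The other growth factors stayed in the medium, and their receptors differed. Egfr went from 2.26 and 11.8 CPM to 55.6 and 92.5 CPM (3.37, SE 0.81), and Il6st, the signalling chain shared by LIF and interleukin 6, from 131 and 169 to 318 and 501 CPM (1.45, SE 0.33). Fgfr1 (0.37, adjusted p = 0.248) and Lifr (0.03, adjusted p = 0.928) were not called. Sdc4, a heparan sulfate proteoglycan that binds growth factors, fell from 1382 and 1307 to 593 and 535 CPM (-1.25, SE 0.25).

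Growth factors that stromal cells supply to germ cells were higher without GDNF. Of 16 niche factors 12 rose, with a median of 2.66. The medium supplies LIF and FGF2 as proteins. Lif rose from 1.13 and 2.47 to 7.81 and 12.6 CPM (2.47, SE 0.47) and Fgf2 from 2.57 and 5.11 to 17.6 and 23.4 CPM (2.40, SE 0.45). Csf1, which also supports macrophages, went from 11 and 42.0 to 178 and 282 CPM (3.11, SE 0.71). Kitl, the ligand of Kit, went from 2.88 and 8.65 to 29.9 and 47.6 CPM (2.73, SE 0.67), Igf1 from 2.32 and 4.77 to 33.0 and 51.6 CPM (3.55, SE 0.47), Hgf from 0.125 and 0.810 to 8.76 and 13.6 CPM (4.45, SE 0.75) and Cxcl12 from 17.7 and 46.0 to 237 and 348 CPM (3.19, SE 0.52). On the feeder scale the median of the list was -0.19. In each of these 7 genes PTC B was above PTC A, as it was for the summed fibroblast markers.

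Genes of the TGF-beta and BMP pathways rose widely, with 20 of 30 called higher and a median of 1.94. Among ligands and their antagonists, Inhba, the activin A subunit, went from 1.00 and 6.05 to 39.2 and 56.6 CPM (3.72, SE 0.89), Bmp4 from 0.439 and 2.34 to 8.60 and 11.9 CPM (2.82, SE 0.69), and Grem1, a secreted BMP antagonist, from 0.439 and 0.938 to 26.7 and 35.9 CPM (5.44, SE 0.54). Tgfb1 itself changed less, from 20.3 and 15.4 to 28.9 and 34.5 CPM (0.83, SE 0.25, adjusted p = 0.0400). Among the targets, Id2, an inhibitor of helix-loop-helix factors that BMP induces, went from 2.19 and 3.84 to 34.9 and 60.4 CPM (3.96, SE 0.44).

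Inflammatory genes rose without GDNF. Of 17 cytokines and receptors 14 rose, of 11 CC chemokines 9, of 8 CXC chemokines 5 and of 19 NF-kB genes 14, and 1 gene of these 4 lists fell. NF-kB, the transcription factor that many inflammatory signals activate, is known to bind the promoters of several of them. The window of 250 bases before the RefSeq start of each gene was searched for GGGANNTTCC on both strands. Of 32851 promoters in the RefSeq table (GRCm38.p6), 1.21% held it. Promoters were matched for 44 of the 55 tested members, and it was found in 4 of 32 members that rose (12.5%) and in 1 of 12 that did not (8.33%). A looser spelling, GGGNNNNNCC, was in 45.8% of all promoters, 59.4% of the members that rose and 66.7% of the others. The match and up to 20 bases on each side are shown for genes whose expression is given next, in the direction of transcription, with the match in capitals, which in Nfkbia is on the opposite strand. Cxcl10 is shown as the member with a match that did not pass the test.
Cxcl1, chr5:90891154-90891203, plus strand: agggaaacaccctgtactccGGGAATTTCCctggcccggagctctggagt
Cxcl2, chr5:90903782-90903831, plus strand: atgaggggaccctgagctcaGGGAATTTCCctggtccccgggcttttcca
Il6, chr5:30013050-30013099, plus strand: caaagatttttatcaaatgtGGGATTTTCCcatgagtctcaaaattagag
Nfkbia, chr12:55492648-55492696, minus strand: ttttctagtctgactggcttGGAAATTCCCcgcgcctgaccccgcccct
Cxcl10, chr5:92349019-92349068, minus strand: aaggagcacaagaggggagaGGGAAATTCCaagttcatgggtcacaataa

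Cxcl1 and Cxcl2, which attract neutrophils and share the same 10 bases in these promoters, rose from 9.97 and 23.3 to 180 and 138 CPM (3.25, SE 0.48) and from 0.753 and 0.938 to 13.9 and 11.7 CPM (3.90, SE 0.37). Il6 rose from 0.125 and 0.682 to 3.27 and 4.90 CPM (3.23, SE 0.86, adjusted p = 0.0290). Nfkbia, the inhibitor that NF-kB itself induces, rose from 19.8 and 28.6 to 174 and 176 CPM (2.85, SE 0.33), and Tnfaip3, a second feedback inhibitor, from 7.40 and 14.6 to 82.9 and 77.0 CPM (2.85, SE 0.44). Cxcl10, which interferon also induces, was at 0.314 and 0.980 CPM in PTC and 1.99 and 2.58 CPM in NTC (1.77, adjusted p = 0.117).

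Saa3, an acute-phase protein, went from 3.70 and 5.63 to 122 and 125 CPM (4.71, SE 0.35, adjusted p = 0.00795). Il33, an alarmin of stromal cells, went from 1.13 and 2.39 to 44.1 and 44.9 CPM (4.62, SE 0.48), and Il1rn, the interleukin 1 receptor antagonist, from 0.753 and 2.22 to 41.1 and 90.1 CPM (5.41, SE 0.61). Tnf reached 6.61 and 9.29 CPM and Il1b 2.23 and 2.13 CPM in NTC, and they rose by 3.81 (SE 0.51) and 4.30 (SE 0.79). A rise of this size places Il1b in PTC near the level of 3 counts, so its fold rests on few counts. Ccl8 went from 1.82 and 1.11 to 47.4 and 54.7 CPM (5.14, SE 0.41), and Ccl2, which recruits monocytes, from 7.96 and 23.5 to 191 and 202 CPM (3.63, SE 0.66). Medians of the cytokine and CC chemokine lists were 3.23 and 3.72, and 0.47 and 0.63 on the feeder scale, where 0 members of either list were called higher.

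Sensors and effectors of innate immunity rose with them. Of 18 sensors 14 rose, among them Tlr2 from 1.32 and 1.28 to 14.4 and 23 CPM (3.84, SE 0.50) and Tlr4, the receptor of bacterial lipopolysaccharide, from 0.815 and 2.86 to 17.1 and 27.5 CPM (3.56, SE 0.68). Of 17 complement genes 15 rose. C3, the central component, went from 12 and 10.0 to 60.8 and 75.7 CPM (2.63, SE 0.34).

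Interferon-stimulated genes did not move together. Of 25 tested, 11 rose and 5 fell. Ifit3 and Ifit1, antiviral RNA-binding proteins, rose from 0.690 and 3.92 to 28.0 and 34.8 CPM (3.71, SE 0.87) and from 0.627 and 2.17 to 16.3 and 14.8 CPM (3.42, SE 0.88), and Isg15, a ubiquitin-like modifier, rose by 2.06 (SE 0.59). Gbp2 and Gbp3, guanylate-binding proteins that interferon gamma induces, fell from 79.0 and 114 to 30.3 and 32.6 CPM (-1.62, SE 0.22) and from 36.9 and 45.8 to 19.12 and 15.7 CPM (-1.25, SE 0.27). Irf1, the factor that drives such genes, fell from 326 and 349 to 188 and 168 CPM (-0.92, SE 0.19) and was at 0.10 on the germ-cell scale. The MHC class I pathway was divided in a like way, with 7 of 16 genes higher and 3 lower: B2m, the light chain, rose from 46.7 and 76.2 to 453 and 599 CPM (3.10, SE 0.37), and Tapbp, the peptide-loading protein tapasin, fell from 234 and 302 to 112 and 118 CPM (-1.22, SE 0.24).

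Macrophage genes were present with GDNF and higher without it. Of 20 markers 18 rose, with a median of 2.93, and each had counts in both groups. Adgre1, the F4/80 antigen, went from 4.83 and 3.28 to 28.7 and 50.7 CPM (3.30, SE 0.41), Csf1r, the receptor of Csf1, from 6.90 and 3.79 to 26.4 and 42.1 CPM (2.69, SE 0.40), and Lyz2, lysozyme, from 198 and 177 to 1552 and 2068 CPM (3.27, SE 0.23). Ptprc, the pan-leukocyte antigen CD45, went from 1.13 and 1.45 to 6.45 and 9.67 CPM (2.63, SE 0.43). These markers differed little inside the PTC pair, with a median B minus A difference of -0.15 on the log2 scale, whereas the fibroblast markers differed by 2.07 there and the collagens by 2.15.

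**Figure D3:**
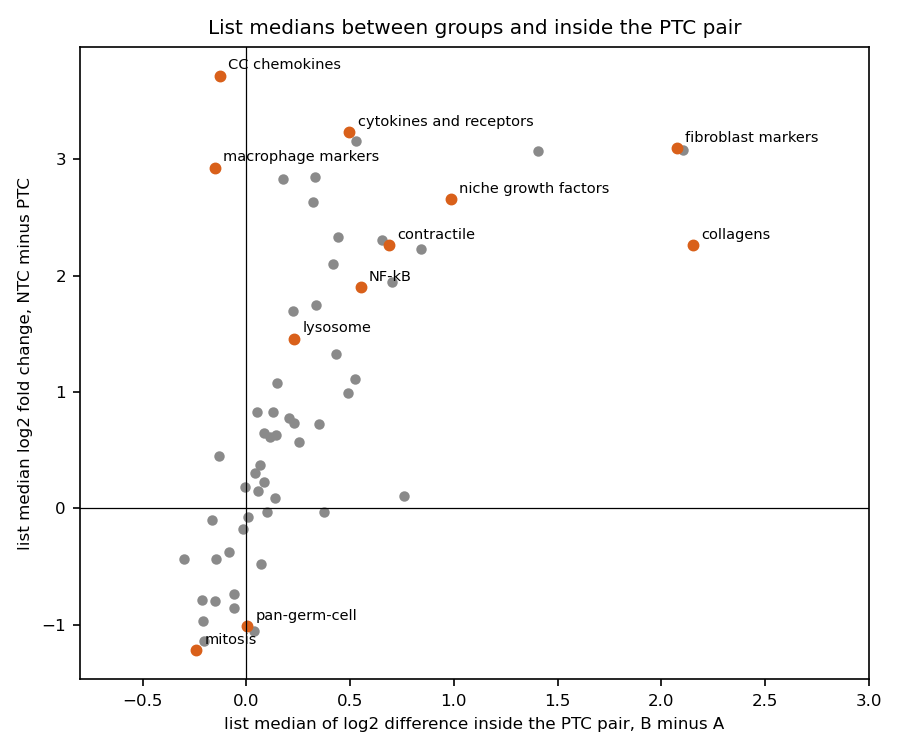
Each point is 1 gene list with at least 8 tested genes: the horizontal axis is its median log2 difference between PTC B and PTC A, and the vertical axis its median log2 fold change, NTC minus PTC, with the lists named in the plot in orange and the others in grey. CC chemokines and macrophage markers lie at -0.13 and -0.15 on the horizontal axis, and fibroblast markers and collagens at 2.07 and 2.15.

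Genes of lipid uptake, lysosomes and iron storage rose as well. Of 17 lipid and scavenger genes 14 rose and 1 fell: Marco, a scavenger receptor of macrophages, went from 0.376 and 0.341 to 8.76 and 12.8 CPM (4.89, SE 0.51), and Lpl, lipoprotein lipase, from 5.27 and 22.1 to 176 and 314 CPM (4.15, SE 0.81). Of 26 lysosome genes 23 rose, with a median of 1.46, among them Ctsh, a cathepsin protease, from 3.14 and 7.71 to 53.5 and 68.9 CPM (3.48, SE 0.44). Tfeb, a transcription factor that activates lysosome genes, was the member that fell, from 22.4 and 17.8 to 10.3 and 8.58 CPM (-1.09, SE 0.28). Fth1 and Ftl1, the ferritin chains that store iron, rose from 451 and 681 to 3399 and 3922 CPM (2.69, SE 0.26) and from 1280 and 1263 to 3795 and 4274 CPM (1.67, SE 0.18).

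Fibroblast and matrix genes rose and also differed inside the GDNF group, where their lists had median B minus A differences of 2.07 and 2.11. All 21 fibroblast markers had both NTC libraries above both PTC libraries and 18 rose, with a median of 3.09. Pdgfra, the PDGF receptor of mesenchymal cells, went from 27.3 and 64.2 to 251 and 450 CPM (2.94, SE 0.59), and Dcn, the matrix proteoglycan decorin, from 42.2 and 179 to 1299 and 1932 CPM (3.87, SE 0.75). Postn, the matrix protein periostin, went from 39.1 and 157 to 909 and 1387 CPM (3.55, SE 0.76), and Acta2, smooth muscle actin of myofibroblasts, from 1.69 and 17.9 to 70.3 and 129 CPM (3.32, SE 1.00). Of 23 collagens, 22 lay above the PTC libraries in both NTC libraries and 6 passed the test, or 19 on the germ-cell scale. Col1a1, the main collagen of fibroblasts, was at 147 and 528 CPM in PTC and 976 and 1827 CPM in NTC (2.05, SE 0.68, adjusted p = 0.0585), and Col4a1 of basement membranes at 65.9 and 354 against 944 and 1463 CPM (2.52, SE 0.77, adjusted p = 0.0472). Without PTC B 19 of the 23 collagens were called, without PTC A 2, without NTC A 1 and without NTC B 0.

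Matrix metalloproteinases, which cut the extracellular matrix, rose strongly. Of 18 MMP and TIMP genes 14 rose. Mmp3, stromelysin 1, went from 19.3 and 70.5 to 1477 and 2266 CPM (5.38, SE 0.72), Mmp13, a collagenase, from 0.690 and 3.58 to 91.9 and 179 CPM (5.92, SE 0.78), and Mmp10 from 0 and 0.384 to 12.7 and 11.8 CPM (5.76, SE 0.92). Mmp8, another collagenase, had 2 and 0 counts in PTC and 9.56 and 10.6 CPM in NTC. Mmp8, Mmp10 and Mmp13 were among the 38 genes called higher on the feeder scale (0.236% of genes), at 4.06, 3.48 and 3.15, as was Kng1, kininogen, which went from 0.0627 and 1.07 to 32.2 and 40.4 CPM. Of these 38 genes, 28 had 0 counts in PTC, such as Try5, a trypsinogen, with 64 and 88 counts in NTC, at least 65.7-fold higher against 3 counts over the PTC group. Genes with 0 counts in PTC shift less with a change of scale than most others do, which favours their call on the feeder scale. Mmp10, Mmp13 and Kng1, which were low in PTC A, also shifted less than the median of all genes, so this limit holds for them too. They were at 5.76, 5.92 and 5.85 under TMM and at 3.48, 3.15 and 3.48 on the feeder scale. Mmp9, a gelatinase, was the member that fell, from 24.3 and 16 to 3.90 and 4.32 CPM (-2.29, SE 0.38, adjusted p = 0.0109). Spp1, osteopontin, went from 72.9 and 149 to 3502 and 4857 CPM (5.24, SE 0.46). Among epithelial junction genes 4 of 16 fell, among them Ocln, the tight junction protein occludin (-1.73, SE 0.29).

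**Figure D4:**
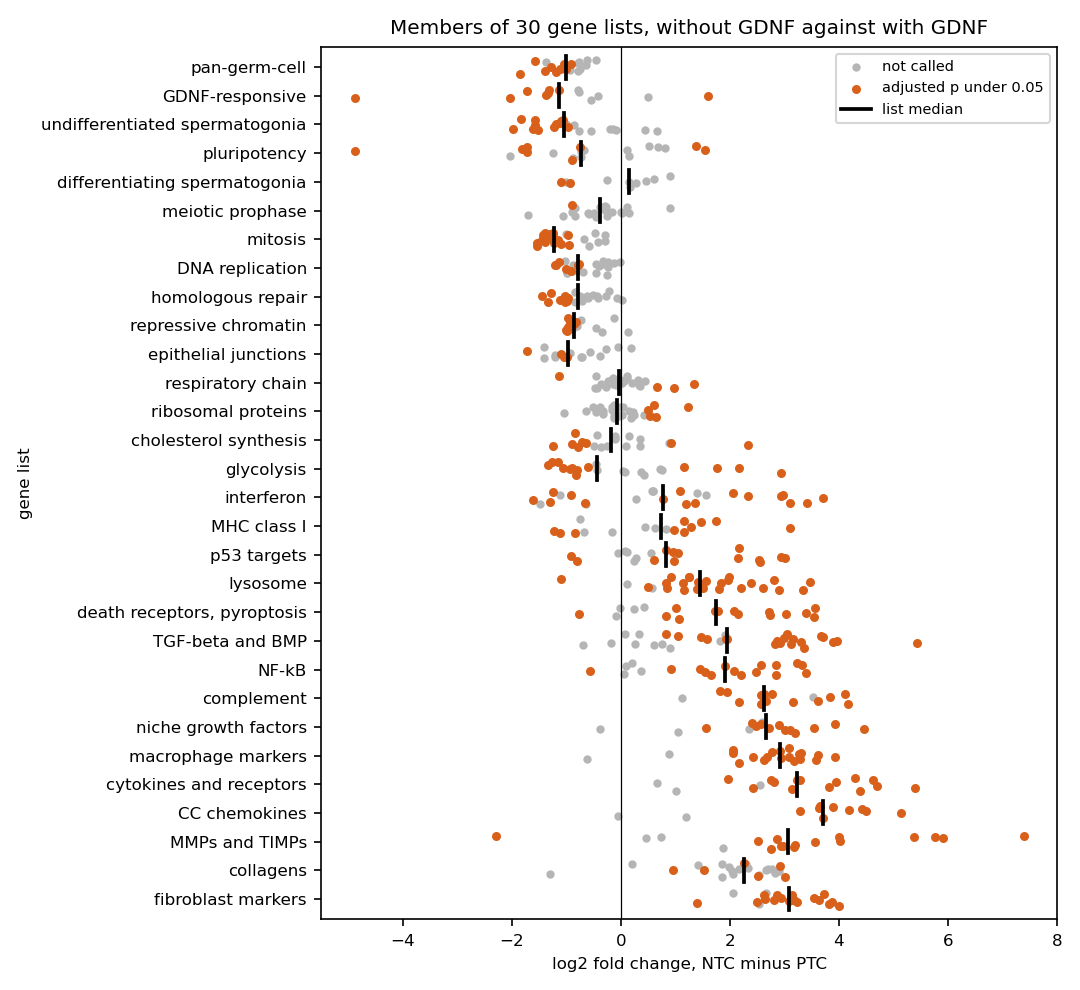
Log2 fold changes, NTC minus PTC, of the tested members of 30 gene lists, 1 point per gene, with called genes in orange, others in grey and the list median as a black bar. The medians of pan-germ-cell, GDNF-responsive, undifferentiated and mitosis genes lie between -1.22 and -1.01, and those of cytokines, CC chemokines, NF-kB, macrophage and fibroblast lists between 1.90 and 3.72. On the germ-cell scale the median of all genes is 1.00 and those 4 germ cell and mitosis medians lie between -0.25 and -0.04.

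Genes of p53 and cell death rose in part. Of 19 p53 targets 11 rose and 2 fell. Ccng1 went from 99.5 and 153 to 522 and 608 CPM (2.16, SE 0.36), Perp, a p53-induced membrane protein, from 1.63 and 3.75 to 20.6 and 23.8 CPM (3.02, SE 0.45), and Gdf15, a stress cytokine, from 0.690 and 0.128 to 4.22 and 1.81 CPM (2.94, SE 0.90, adjusted p = 0.0435). Of 18 genes of death receptors, necroptosis and pyroptosis 13 rose and 1 fell: Fas went from 2.13 and 4.52 to 30.8 and 48.4 CPM (3.55, SE 0.47) and Casp8, which FAS activates, from 2.38 and 3.45 to 17.8 and 20.8 CPM (2.71, SE 0.41). Bcl2, which blocks apoptosis, rose too, from 0.753 and 1.24 to 4.70 and 4.38 CPM (2.16, SE 0.50).

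Metabolic genes changed in both directions. Of 21 glycolysis genes 4 rose and 9 fell. Hk2 and Slc2a3, a hexokinase and a glucose transporter, fell by 0.94 (SE 0.18) and 1.16 (SE 0.28), though Hk2 was at 0.11 on the germ-cell scale. Pgk1 rose from 94.5 and 114 to 310 and 400 CPM (1.77, SE 0.28), Eno2 from 3.39 and 4.60 to 22.5 and 38.8 CPM (2.93, SE 0.45), and Gapdh stayed between 955 and 1190 CPM in the 4 libraries (0.07, adjusted p = 0.749). Of 20 cholesterol synthesis genes 6 fell and 2 rose: Ebp rose from 2.38 and 4.09 to 14.5 and 18.3 CPM (2.33, SE 0.41), while Hmgcs1 was at -0.25 (adjusted p = 0.304). Fasn, fatty acid synthase, fell from 592 and 605 to 288 and 290 CPM (-1.05, SE 0.17). Of 19 ATF4 and unfolded protein response genes, 8 rose and 4 fell, with a median of 0.31. Slc7a5, an amino acid transporter, and Phgdh, of serine synthesis, fell by 1.26 (SE 0.27) and 0.97 (SE 0.25). Both are targets of ATF4, and Phgdh was at 0.016 on the germ-cell scale. Ddit3, the stress factor CHOP, rose from 5.39 and 9.84 to 26.6 and 41.7 CPM (2.15, SE 0.41). Of 27 respiratory chain genes 3 rose and 1 fell, and of 28 ribosomal protein genes 5 rose, with medians of -0.03 and -0.08.

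Imprinted genes, which are expressed from 1 parental copy, mostly rose: 17 of 24 were higher and 1 lower, with a median of 2.23. H19 went from 578 and 1759 to 5732 and 7453 CPM (2.50, SE 0.51), Meg3 from 17.9 and 46.6 to 320 and 503 CPM (3.67, SE 0.66), and Airn from 0.125 and 0.597 to 4.54 and 5.67 CPM (3.70, SE 0.72). Ascl2 was not called (-1.01, adjusted p = 0.344). These genes too had higher values in PTC B than in PTC A, with a median difference of 0.84.

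Nuclear and ribosomal DNA-linked RNAs differed sharply between the groups. AY036118 went from 312 and 338 CPM to 7871 and 12776 CPM (4.99, SE 0.33, adjusted p = 0.00795), and Gm42418, which overlaps ribosomal DNA sequence, from 885 and 1174 to 16217 and 20126 CPM (4.14, SE 0.26). Malat1 and Neat1, long RNAs kept in the nucleus, went from 205 and 123 to 1631 and 3201 CPM (3.88, SE 0.66) and from 19.13 and 25.9 to 80.8 and 123 CPM (2.18, SE 0.42). Gm26917 fell, from 325 and 576 to 163 and 99 CPM (-1.78, SE 0.38). AY036118 and Gm42418 overlap on opposite strands (chromosome 17, 39847113 to 39848035 and 39846958 to 39848788 in mm10), and whether the counting used strand is not given in the sources used here, so their reads cannot be told apart. The 8 measured RNAs of this list, of which 6 rose and 1 fell, together took 0.192% and 0.240% of counts in PTC and 2.63% and 3.42% in NTC. The part of this share in the other changes was not tested. AY036118 was the 1 gene still called without NTC B.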

How the data were processed

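The authors deposited 1 table of raw counts, whole numbers for each Ensembl gene that were not normalized. The submitters' processing notes name Trimmomatic, Bowtie2, RSEM, DESeq2 and the build mm10; versions, roles and strand settings are not given in the sources used here. If RSEM made the counts, they were rounded before deposit. Symbols came from GENCODE M21 (31363 of 31384 identifiers matched), and promoters from RefSeq.

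The columns were assigned to groups by their names. Genes were filtered with filterByExpr, scaled by TMM and fitted over all 6 libraries with edgeR 4.0.16 in R 4.3.3 (robust quasi-likelihood, legacy form; biological coefficient of variation 0.260, 3 residual degrees of freedom), and NTC minus PTC was tested. CPM uses the TMM-scaled totals. The fit was also run on simulated data in which few genes changed, unlike in these libraries, so that run does not test the calls made here. Alternatives used DESeq2 1.42.0, limma-voom 3.58.1, other scalings and filters, a block by column letter and each library left out. The members and the 64 gene lists were chosen with earlier results of these data known. Named genes were set members (Ret, Gfra1 and others), for each list the called members with the largest changes, at most 4 (mean of at least 5 CPM, libraries not overlapping), the extremes over all genes and under each cell-type scale. Ifit1, Gbp3, Itgb1, Sox2 and some others were named after their values were seen, and some genes that the rules choose are not reported here. Molecular identifiers are not mentioned in the sources used here, so floors of 3 counts allow for counting error and not for PCR duplication.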

Additional observations from a re-analysis of the deposited data

How the results depend on the processing

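Counts of calls depended on the scaling and on which libraries entered. With 1 library left out in turn, genes called higher ranged from 1 to 3635 and genes called lower from 0 to 3091, against 3472 and 2086 with all; the lowest counts came without NTC B and the highest without 1 lovastatin library. Of the 171 called genes named here, the call was lost in 170 without NTC B, in 69 when PTC A was left out, in 50 without NTC A in 33 without PTC B and in 15 without either of the lovastatin libraries in turn. The sign stayed the same in all 171 in each case, and the median log2 fold change was between 91.0% and 110.7% of that with all libraries. DESeq2 called 3909 higher and 2601 lower, and it kept all 171 calls, as did edgeR with RLE size factors. The replicate block by column letter gave 4421 higher and 3632 lower, though letters pair nothing by the labels. The deviations of PTC A and NTC A from their group means correlated at 0.31 over genes. With 2 libraries a group, the B deviations mirror those of A, so the B libraries give the same value. For genes with 0 counts in a group, a floor of 3 counts over that group set the lower bound of the fold.

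The germ-cell scale gave 4783 genes called higher and 40 lower, and the feeder scale 38 higher and 12043 lower. These scales moved all genes by construction. Pdgfra, Thy1 and Col1a1 are among the markers that set the feeder scale, and Ddx4 is among the genes that set the germ-cell scale. Their own values on those scales carry no information. On the feeder scale the log2 value turned negative for 56 named genes: -0.020 (Malat1), -0.084 (Perp), -0.25 (Col4a1), -0.26 (B2m), -0.28 (Pdgfra), -0.31 (Kitl), -0.32 (Thy1), -0.32 (Tnfaip3), -0.39 (Lyz2), -0.45 (Cdkn1a), -0.51 (Nfkbia), -0.52 (Adgre1), -0.53 (H19), -0.54 (Eno2), -0.58 (Cyp26b1), -0.62 (Rbl2), -0.64 (Casp8), -0.68 (Tet2), -0.68 (Fth1), -0.70 (Lif), -0.73 (Pik3r1), -0.80 (Ptprc), -0.82 (Fgf2), -0.89 (Gdf15), -0.95 (Col1a1), -0.96 (Ebp), -0.96 (Isg15), -1.0 (Ncam1), -1.03 (Bcl2), -1.04 (Gfra2), -1.04 (C3), -1.11 (Cdkn2b), -1.14 (Cxcl10), -1.16 (Ddit3), -1.20 (Csf1r), -1.20 (Ccng1), -1.30 (Neat1), -1.38 (Gdnf), -1.51 (Notch3), -1.57 (Spry1), -1.59 (Itgb1), -1.74 (Pgk1), -1.92 (Ftl1), -1.99 (Klf4), -2.07 (Il6st), -2.08 (Nanog), -2.24 (Cxcr4), -2.25 (Stra8), -2.26 (Rps27), -2.88 (Tgfb1), -2.99 (Kit), -3.10 (Fos), -3.27 (Fgfr1), -3.46 (Eef1a1), -3.59 (Gapdh), -3.60 (Lifr). On the germ-cell scale it turned positive for 18: 0.81 (Hmgcs1), 0.68 (Dusp6), 0.67 (Mki67), 0.62 (Etv5), 0.43 (Igf1r), 0.38 (Etv4), 0.36 (Gfra1), 0.31 (Spry4), 0.30 (Id4), 0.27 (Gclc), 0.11 (Hk2), 0.097 (Irf1), 0.076 (Ddx4), 0.076 (Tex11), 0.037 (Hoxb9), 0.016 (Phgdh), 0.011 (Ascl2), 0.0041 (Ehmt2). With no scaling factor the values that changed sign were -0.041 (Gapdh), -0.086 (Lifr). With 1 library left out in turn 6 genes changed sign, none of them called with all libraries, and their log2 values ran from -0.80 to 0.11 (Etv5), from -0.24 to 0.74 (Kit), from -0.69 to 0.24 (Mki67), from -0.18 to 0.23 (Lifr), from -0.080 to 0.24 (Gapdh), from -1.24 to 0.26 (Etv4).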

Other observations

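Further signalling lists held members of both directions. Of 22 WNT genes 8 rose and 3 fell. Lgr5, a receptor of R-spondins, rose from 1.13 and 2.56 CPM in PTC A and B to 14.1 and 45.7 CPM in NTC A and B (3.99, SE 0.86). Sfrp4, a secreted antagonist, rose from 0.753 and 5.16 to 57.4 and 78.0 CPM (4.46, SE 0.76), and Wnt11 by 4.29 (SE 0.83). Tcf7, a transcription factor of the pathway, fell from 221 and 186 to 115 and 79.8 CPM (-1.07, SE 0.30). Of 16 NOTCH genes 3 rose and 1 fell, with Notch3 higher by 1.88 (SE 0.36) and the ligand Jag2 lower (-1.14, SE 0.31). Of 15 retinoid genes 6 rose: Aldh1a1, which makes retinoic acid, went from 5.20 and 7.59 to 68.7 and 116 CPM (3.84, SE 0.47), and Cyp26b1, which degrades it, from 1.0 and 2.9 to 7.89 and 14.2 CPM (2.47, SE 0.61).

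Of 22 YAP targets 11 rose, among them F3, tissue factor, from 6.15 and 32.1 to 193 and 292 CPM (3.65, SE 0.79), and Ankrd1 (3.09, SE 0.89). Of 11 genes around IGF signalling 6 rose and 1 fell: Pappa, a protease that frees IGF, went from 2.95 and 27.6 to 143 and 301 CPM (3.85, SE 1.04), and the receptor Igf1r fell by 0.62 (SE 0.17), though it was at 0.43 on the germ-cell scale. Of 19 antioxidant genes 11 rose and 2 fell, with Sod3, an extracellular superoxide dismutase, higher by 3.66 (SE 0.50) and Gclc, of glutathione synthesis, lower (-0.74, SE 0.19; 0.27 on the germ-cell scale).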
